A study of Mus musculus with 26 samples.

Results

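Genomic imprinting silences 1 parental copy of a gene, so that RNA is made from the copy of the other parent. Many imprinted genes act on fetal and early growth, and several of them are also active in satellite cells and regenerating muscle. The genes described here were a set of 10: the paternally expressed Peg3, Igf2, Dlk1, Mest, Plagl1 and Ndn, and the maternally expressed H19, Meg3, Grb10 and Cdkn1c. Their RNA was read in mouse tibialis anterior and extensor digitorum longus muscle, a pair of fast-twitch muscles of the shin. Probe sets were taken where the platform annotation gave exactly 1 of these gene symbols, which held for 36 of the 45101 probe sets on the array. The 36 covered 9 of the 10 genes. The probe set for H19 carries a second gene symbol too, so H19 is not analysed here.

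The study placed control mice with floxed alleles (FLOX) and littermates with a knockout of PGC-1a restricted to skeletal muscle (MKO) on 2 diets for 12 weeks. PGC-1a is the coactivator encoded by Ppargc1a. All mice were of mixed C57/BL6 and 129 background and lived 1 to a cage, and their unrestricted intake was recorded for at least 10 days. Mice on the control diet received 90% of that intake, and calorie-restricted (CR) mice received 80% for 1 week and then 60% of it, as an AIN-93M diet made for 40% restriction, for about 11 weeks. On each diet there were 6 FLOX and 7 MKO mice, each with its own array. The sources used here do not give the Cre driver or the age and sex of the mice.

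The genes were chosen from values of these arrays, but which values were used is not stated. Peg3 was among the genes with the largest difference between CR and control diet in FLOX mice, and that comparison was taken to be the one behind the choice. For all 9 genes that difference, and its contrast with the one in MKO mice, are therefore given as a description with no test. CR against control diet in MKO shares no mice with that comparison and was tested. This assumes that values of the 14 MKO mice played no part in the choice, which is not known, and its p-values are to be read with that limit. The comparisons of MKO with FLOX share their FLOX mice with it and were tested only for the 8 genes other than Peg3. Arrays do not tell parental copies apart, and in whole muscle fewer cells of a type cannot be told apart from less RNA per cell.

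Within a group, the correlation between arrays lay between 0.984 and 0.996 over the 14854 tested genes. The deposited intensities had a floor, the lowest of an array lying between 56.6 and 62.8, and a median between 212 and 232. The 5 probe sets for Ppargc1a were brighter in mice labelled MKO, by 1.55 to 1.84 times on the control diet and by 1.33 to 1.58 times on CR. Their place relative to the deleted part is not known here, so they do not check the labels, and MKO stands below for the mice labelled so. Fibre markers were bright in every group. The summed intensity of the 9 listed fibre genes (such as Ckm and Acta1) ranged from 261509 to 279255 over all mice.

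In RefSeq (GRCm38.p6) the genes lie on 5 chromosomes. Igf2 (chr7:142650768-142666816), H19 (chr7:142575530-142578146) and Cdkn1c (chr7:143458339-143461059) are neighbours at 1 end of chromosome 7, which also carries Peg3 (chr7:6703892-6730462) and Ndn (chr7:62348277-62349928). Dlk1 (chr12:109452485-109463336) and the noncoding RNA Meg3 (chr12:109540996-109571729) share a domain on chromosome 12. Mest (chr6:30733506-30748466), Plagl1 (chr10:13090832-13131694) and Grb10 (chr11:11930499-12037428) lie apart. The RefSeq table of promoters, each running from 250 bases before a start to 50 after it, held 15 promoters for 8 of the genes and none for Cdkn1c or H19.

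Imprinted promoters are often rich in CpG, the dinucleotide at which DNA is methylated. In this set 12 of the 15 promoters held more CpG than the median of 7.0 in all 32851 promoters. The 250 bases before a start are shown for Peg3, which has the largest differences below, and for Grb10, which differed between genotypes on both diets. CpG is in capitals, and both are written on the gene's own strand, the minus strand. The first is chr7:6730420-6730669 and the other is chr11:12037421-12037670.
Peg3: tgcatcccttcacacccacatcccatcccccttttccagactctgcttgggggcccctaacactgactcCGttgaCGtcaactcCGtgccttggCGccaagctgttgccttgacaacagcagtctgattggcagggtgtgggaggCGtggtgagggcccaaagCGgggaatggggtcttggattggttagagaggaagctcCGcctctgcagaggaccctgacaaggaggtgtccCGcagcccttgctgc
Grb10: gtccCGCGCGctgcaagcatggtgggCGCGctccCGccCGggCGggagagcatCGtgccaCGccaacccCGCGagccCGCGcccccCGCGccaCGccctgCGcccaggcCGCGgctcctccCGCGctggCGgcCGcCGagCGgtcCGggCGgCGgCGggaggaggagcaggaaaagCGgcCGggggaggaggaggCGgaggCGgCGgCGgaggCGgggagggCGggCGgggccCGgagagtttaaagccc
These stretches hold 8 and 40 CpG, and the full 300-base promoters hold 13 and 45. The letters CCATNTT, the core of the YY1 motif, were looked for on both strands and were found in 2 of the 15 promoters, against 16.1% of all promoters. The second motif searched was TNAAGGTCA, an ERR motif, ERR being nuclear receptors that PGC-1a coactivates. It was found in 1 of the 15, at the second Meg3 start, against 1.28% of all promoters. Neither motif was in the Peg3 promoter or in the one printed for Grb10. The YY1 letters were found in the other Grb10 promoter and in 1 of the Igf2 promoters. DNA methylation and factor binding were not measured on these arrays.

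The 9 genes did not move as 1 group with diet or genotype. In MKO mice Igf2 rose and Cdkn1c fell with CR. Grb10 was higher in MKO than in FLOX on both diets, and Meg3 was higher in MKO on the control diet. In FLOX mice the groups on the 2 diets did not overlap for 3 of the 9, with Peg3 and Igf2 higher and Cdkn1c lower on CR. Over all genes the groups did not overlap for 5.40%, and 10.0% were called in that comparison. It is the one taken to have led to the choice of the genes, so nothing is read from this count. For CR in MKO 2 of 9 were called (22.2%), against 15.1% of all genes. For MKO on the control diet 2 of 8 were called (25.0%), against 19.3%. For MKO on CR 1 of 8 was called (12.5%), against 17.3%. A called gene has an adjusted p under 0.05 in limma over the 14854 genes (Benjamini-Hochberg). Without that adjustment 4, 3 and 2 genes had limma p under 0.05 in these comparisons. The share of all genes at that looser threshold is not given here, so nothing is read from these counts. With so few genes, 1 call more or fewer moves the share across the background.

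**Figure D1:**
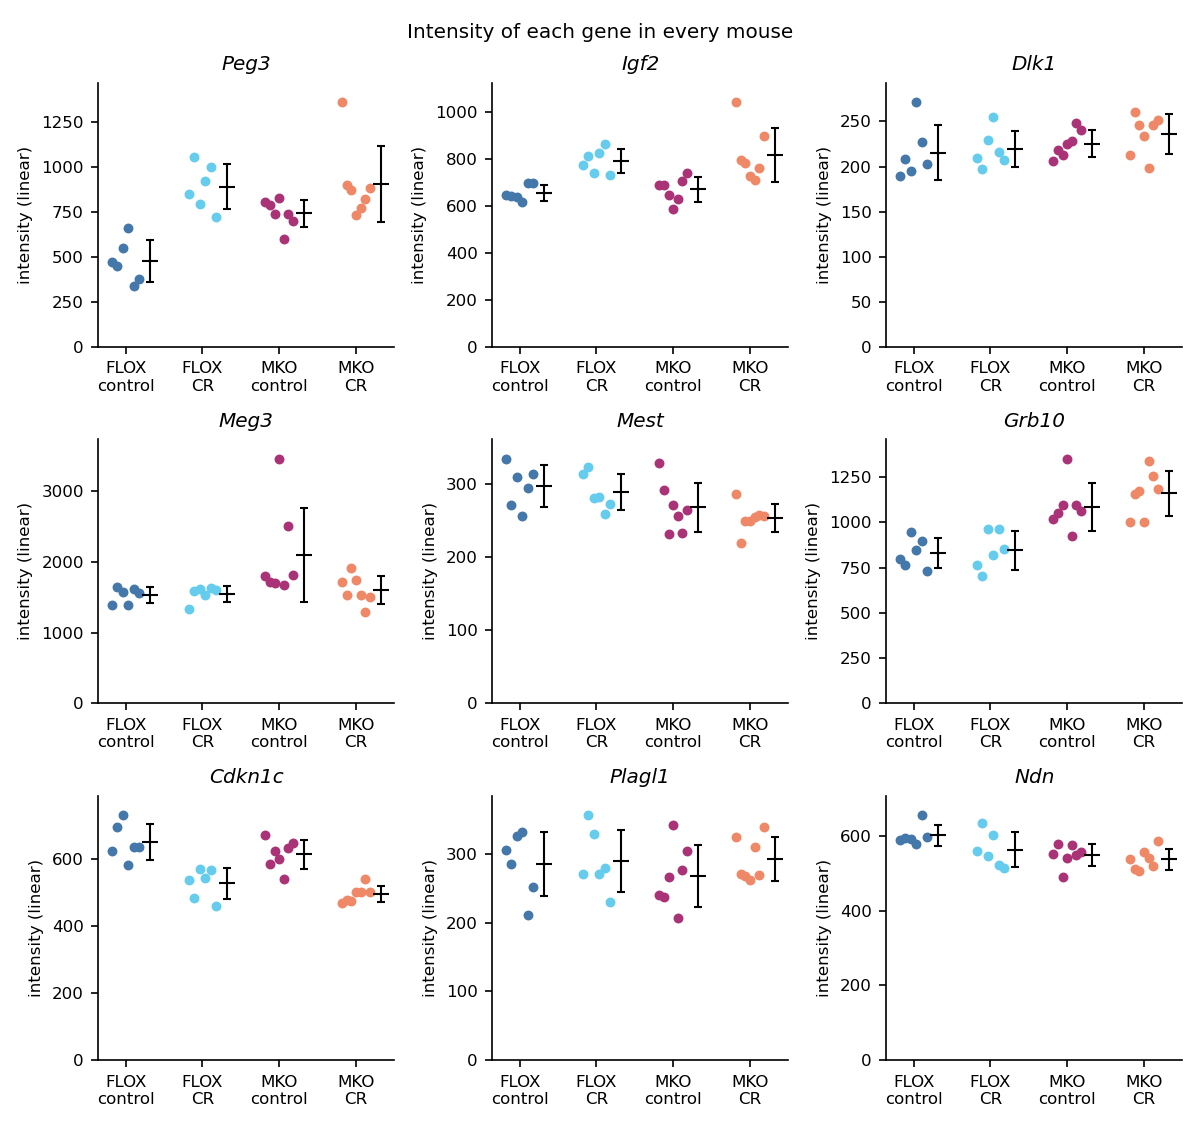
Intensity (linear scale, from 0) of the brightest probe set of each of the 9 genes in every mouse, by genotype and diet. Points are mice, and the bar beside them is the mean with its SD. Peg3 in FLOX mice reached at most 661 on the control diet and at least 724 on CR, and 1 MKO mouse on CR stood at 1360.

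Peg3 encodes a large zinc-finger protein that binds DNA and takes part in growth and in muscle progenitor behaviour. Its brightest probe set had intensities from 338 to 661 (median 460) in FLOX mice on the control diet and from 724 to 1055 (median 886) in FLOX mice on CR. The MKO mice on the control diet lay between them, from 601 to 825 (median 737), and the MKO mice on CR from 734 to 1360 (median 869). So the FLOX mice on the control diet were the low group, and the other 3 groups overlapped each other.

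The means of Peg3 were 474 ± 117 (SD, n = 6), 890 ± 125 (n = 6), 741 ± 76.2 (n = 7) and 905 ± 209 (n = 7) in that order. The log2 difference of CR from control diet was 0.91 ± 0.14 (SE) in FLOX, a 1.88-fold higher level on the log2(intensity + 16) scale. In MKO it was 0.26 ± 0.13 (limma adjusted p = 0.177), and 4 of the 7 CR mice were above every control mouse. Without the CR mouse at 1360, the difference in MKO was 0.16 (adjusted p = 0.391). The diet difference in MKO minus that in FLOX was -0.65 ± 0.18, given as a description. On the control diet Peg3 was 0.66 ± 0.13 (log2) above FLOX in MKO, with 6 of 7 MKO mice above every FLOX mouse. On CR the same difference was 0.01 ± 0.13.

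Of 5 probe sets for Peg3, 3 passed the filter on dim probe sets. For those 3 the log2 difference of CR from control diet ran from 0.59 to 0.91 in FLOX and from 0.18 to 0.26 in MKO, and that of MKO from FLOX on the control diet from 0.39 to 0.66. Among mice of 1 group (26 mice, group means subtracted) the brightest was followed by one of the other passing probe sets at r = 0.96 and by the last at r = 0.36. The other 2 probe sets were near the floor of the arrays.

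**Figure D2:**
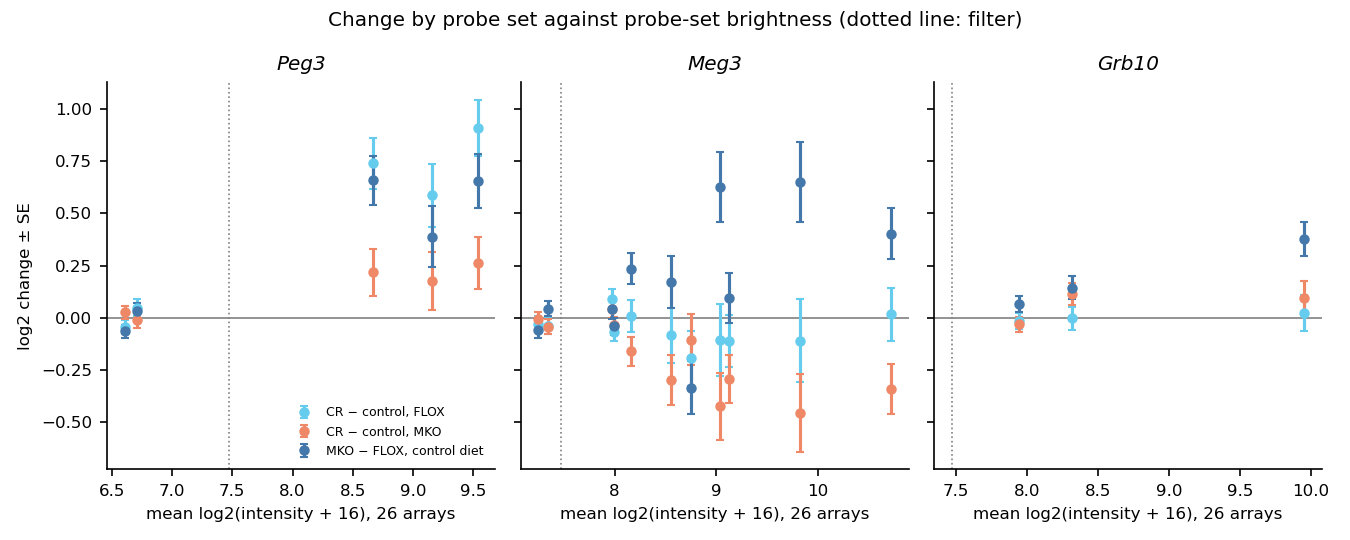
Log2 change with its SE (vertical axis) of every probe set for Peg3, Meg3 and Grb10 against its mean log2(intensity + 16) over 26 arrays (horizontal axis), in 3 comparisons. The dotted line is the brightness filter at 7.471. All 3 bright Peg3 probe sets lie above 0 in each comparison, whereas the Meg3 probe sets range from -0.34 to 0.65 for MKO against FLOX on the control diet.

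Markers of regenerating or denervated fibres moved in the comparison in which Peg3 differed most. In FLOX mice 4 of the 8 listed genes rose with CR (Myh8, Myog, Chrna1 and Actc1, adjusted over all genes). In MKO mice 1 of 8 rose, Chrna1. For MKO against FLOX on the control diet 2 of 8 were higher and 1 lower. For MKO against FLOX on CR 0 of 8 were higher and 1 was lower, Actc1. Its log2 difference there was -1.41 (limma adjusted p = 0.00759), whereas that of Peg3 was 0.01. Of all genes 10.0%, 15.1%, 19.3% and 17.3% were called in these 4 comparisons, in that order. The summed intensity of the 8 markers ranged from 4939 to 9421 in control FLOX and from 10816 to 28427 in CR FLOX. In MKO it ranged from 5701 to 13809 on the control diet and from 6469 to 16779 on CR. The sum is of linear intensities, so 1 gene can lead it. With CR in FLOX Actc1 rose 4.51-fold, and Chrna1, Myog and Myh8 rose 1.37-, 1.26- and 1.23-fold. Myh3, Chrng, Ncam1 and Runx1 did not pass there. Over the 26 mice, with group means subtracted, Peg3 correlated with the log2 of that sum at r = 0.36. Satellite cell markers gave 0 of 8 called with CR in FLOX and 1 of 8 in MKO (0.0% and 12.5%, against 10.0% and 15.1% of all genes). The part of these cells in the Peg3 values was not tested.

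Igf2 is a secreted growth factor of fetal life that signals through the IGF1 and insulin receptors. Its intensity ranged from 619 to 699 (median 643) in control FLOX, 588 to 741 (median 690) in control MKO, 732 to 864 (median 795) in CR FLOX and 713 to 1044 (median 782) in CR MKO. Both CR groups stood above the control groups, with no overlap in FLOX and with 5 of 7 CR mice above every control mouse in MKO. The means were 657 ± 33.5 (SD, n = 6) and 792 ± 51.9 (n = 6) in FLOX, and 671 ± 51.7 (n = 7) and 818 ± 117 (n = 7) in MKO.

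Igf2 rose 1.21-fold with CR in MKO, a log2 change of 0.27 ± 0.07 (limma adjusted p = 0.0052). In FLOX the log2 difference was 0.26 ± 0.07, and the contrast between the 2 diet differences was 0.01 ± 0.10. The log2 difference of MKO from FLOX was 0.03 on the control diet (adjusted p = 0.815) and 0.04 on CR (adjusted p = 0.774). A second Igf2 probe set lay just under the brightness filter, with log2 differences of CR from control diet of -0.03 in FLOX and 0.05 in MKO. The log2 summed intensity of the regenerating-fibre markers above correlated with Igf2 at r = 0.38 among mice of 1 group, and their part in the Igf2 values was not tested.

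Grb10 encodes an adaptor protein that binds the insulin and IGF1 receptors and dampens their signal. Intensities were 731 to 945 (median 821) in control FLOX and 922 to 1351 (median 1065) in control MKO. On CR they were 702 to 965 (median 837) in FLOX and 1003 to 1340 (median 1172) in MKO. On CR no MKO mouse was as low as any FLOX mouse, and on the control diet 6 of 7 MKO mice were above every FLOX mouse.

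The means of Grb10 were 830 ± 81.2 (SD, n = 6) and 1085 ± 131 (n = 7) on the control diet and 844 ± 106 (n = 6) and 1159 ± 123 (n = 7) on CR. Grb10 was 1.30-fold higher in MKO on the control diet, a log2 change of 0.38 ± 0.08 (limma adjusted p = 0.00194). On CR it was 1.37-fold higher, a log2 change of 0.45 ± 0.08 (adjusted p = 0.000279). The log2 difference of CR from control diet was 0.02 ± 0.09 in FLOX and 0.10 ± 0.08 (adjusted p = 0.49) in MKO. All 3 Grb10 probe sets were higher in MKO, by 0.07 to 0.38 on the control diet and 0.05 to 0.45 on CR. When tested over all 26116 bright probe sets, 1 of the 3 passed on the control diet and 2 passed on CR. Endothelial markers were lower in MKO for 3 of 9 on the control diet (33.3%, against 19.3% of all genes called). On CR they were lower for 4 of 9 (44.4%, against 17.3%). Grb10 correlated with the log2 of their summed intensity at r = 0.20 among mice of 1 group. Their part in the Grb10 values was not tested.

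The other genes of the IGF system, ligands, receptors, binding proteins, substrates and mRNA-binding proteins, gave 18 tested of 20 listed. With CR, 0 rose and 4 fell in each genotype (22.2%, against 10.0% of all genes in FLOX and 15.1% in MKO), with a median log2 change of -0.08 in FLOX and -0.04 in MKO. Of the 6 binding proteins tested, Igfbp5, Igfbp6 and Igfbp7 fell in both genotypes and Igfbp2, Igfbp3 and Igfbp4 did not pass in either. Igfbp7 fell by 0.48 in FLOX (limma adjusted p = 0.000425) and by 0.43 in MKO (adjusted p = 0.000338). Igfbp5 fell by 0.45 (adjusted p = 0.00821) and by 0.47 (adjusted p = 0.00235). The remaining fall was that of the ligand Igf1 in FLOX, by 0.38 (adjusted p = 0.0495), and of the receptor substrate Irs1 in MKO, by 0.40 (adjusted p = 0.00252). Igf1 had a log2 difference of -0.23 in MKO (adjusted p = 0.2) and Irs1 one of -0.15 in FLOX (adjusted p = 0.374). Fibroblast and fibro-adipogenic markers fell with CR too, 6 of 11 in FLOX and 8 of 11 in MKO (54.5% and 72.7%, against 10.0% and 15.1%). The part of these cells in the IGF values was not tested. In MKO against FLOX 2 of the 18 were lower on the control diet (11.1%, against 19.3% of all genes called) and 1 on CR (5.56%, against 17.3%). Igfbp7 was lower on both, by 0.31 (limma adjusted p = 0.00604) and 0.27 (adjusted p = 0.0213).

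Cdkn1c encodes an inhibitor of cyclin-dependent kinases that holds cells out of division. Its intensity was 581 to 729 (median 635) in control FLOX, 460 to 569 (median 540) in CR FLOX, 539 to 669 (median 621) in control MKO and 469 to 540 (median 500) in CR MKO. In FLOX every CR mouse was below every control mouse, and in MKO 6 of 7 were. The means were 650 ± 52.9 (SD, n = 6), 526 ± 45.1 (n = 6), 613 ± 43.6 (n = 7) and 495 ± 24.5 (n = 7) in the same order.

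Cdkn1c fell by 0.30 ± 0.05 on the log2 scale with CR in MKO, 1.23-fold (limma adjusted p = 0.000347). In FLOX the log2 difference was -0.30 ± 0.06. MKO was 0.08 below FLOX on each diet, with adjusted p = 0.335 on the control diet and 0.34 on CR. Only 1 probe set names Cdkn1c.

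Fibroblast and fibro-adipogenic markers moved with diet in the same direction as Cdkn1c. Of 11 tested, 6 fell in FLOX and 8 in MKO with CR, with a median log2 change of -0.37 in each. These are 54.5% and 72.7%, against 10.0% and 15.1% of all genes called. The summed intensity of these markers ranged from 11360 to 17371 in control FLOX and 6481 to 10618 in CR FLOX, and from 10671 to 14789 in control MKO and 5337 to 9445 in CR MKO. Endothelial markers gave 1 of 9 lower in FLOX and 4 of 9 lower in MKO (11.1% and 44.4%). Among mice of 1 group, Cdkn1c correlated with the log2 summed intensity of the fibroblast markers at r = -0.16 and with that of the endothelial markers at r = -0.13 (26 mice). The part of these cells in the Cdkn1c values was not tested.

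Meg3 is a long noncoding RNA made from the maternal copy of the domain on chromosome 12. It had intensities from 1384 to 1651 (median 1568) in control FLOX and from 1666 to 3457 (median 1804) in control MKO. On CR the values were 1334 to 1624 (median 1594) in FLOX and 1292 to 1912 (median 1535) in MKO. The high group was control MKO, whose 7 mice all lay above the 6 FLOX mice on that diet, with mouse 4 at 3457 and mouse 6 at 2513 well above the other 5.

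The means of Meg3 were 1530 ± 117 (SD, n = 6), 2095 ± 668 (n = 7), 1548 ± 110 (n = 6) and 1604 ± 201 (n = 7) in that order. Meg3 was 1.32-fold higher in MKO on the control diet, a log2 change of 0.40 ± 0.12 (limma adjusted p = 0.021). Without mouse 6 the change was 0.35 (adjusted p = 0.0521), and without mouse 4 it was 0.27 (adjusted p = 0.0332). With the mean of all Meg3 probe sets that passed in place of the brightest, it was 0.21 (adjusted p = 0.104). With CR in MKO the log2 change was -0.34 ± 0.12 (adjusted p = 0.0504), and -0.21 (adjusted p = 0.108) without the control mouse 4. In FLOX the diet difference was 0.02 ± 0.13.

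Of 11 Meg3 probe sets, 9 passed the filter, and they did not agree. The brightest carries the suffix _x_at, which marks probe sets with some probes that can also match other, unrelated sequences. For MKO on the control diet 7 of 9 were higher, with log2 changes from -0.34 to 0.65, and 4 passed over all probe sets. For CR in MKO 1 of 9 was higher, with changes from -0.46 to 0.04, and 0 passed. The brightest followed the others among mice at r = 0.06 to 0.90.

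Dlk1, a membrane protein related to Notch ligands that holds back differentiation, is the paternal gene of the same domain. Its intensity was 190 to 272 (median 205) in control FLOX and 199 to 261 (median 246) in CR MKO, and the groups overlapped throughout. Its log2 changes were 0.06 with CR in MKO (limma adjusted p = 0.647), 0.07 for MKO on the control diet (adjusted p = 0.542) and 0.10 for MKO on CR (adjusted p = 0.385). Among mice of 1 group, Dlk1 and Meg3 correlated at r = 0.03 (26 mice).

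Mest encodes a protein of the hydrolase fold and did not pass the test in any comparison. Its means were 297 ± 28.7 (SD, n = 6) and 268 ± 34.0 (n = 7) for FLOX and MKO on the control diet, and 289 ± 24.6 (n = 6) and 253 ± 19.4 (n = 7) on CR. The log2 differences were -0.14 (limma adjusted p = 0.166) and -0.18 (adjusted p = 0.0831), and 6 of 7 MKO mice were below every FLOX mouse on CR.

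Plagl1, a zinc-finger transcription factor, had intensities of 211 to 332 in control FLOX and 262 to 340 in CR MKO. Its log2 changes lay between -0.09 and 0.13, with adjusted p from 0.47 to 0.932 in the tested comparisons. Its brightest probe set carries the same suffix, for probes that can match other sequences, and followed the other 2 Plagl1 probe sets at r = -0.20 and 0.21.

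Ndn encodes necdin, a protein that restrains growth and supports neurons and muscle progenitors. On the control diet all 7 MKO mice (489 to 578) were below all 6 FLOX mice (579 to 655), a log2 difference of -0.13 ± 0.05 (limma adjusted p = 0.0534). Here too the probe sets disagreed. The brightest one carries the suffix for probes that can match other sequences, as do 2 of the other 4 that passed. It followed those 4 at r = -0.08 to 0.17, while these followed each other at r = 0.82 to 0.96. The other 4 were higher in MKO on the control diet, so the direction of Ndn depends on the probe set.

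**Figure D3:**
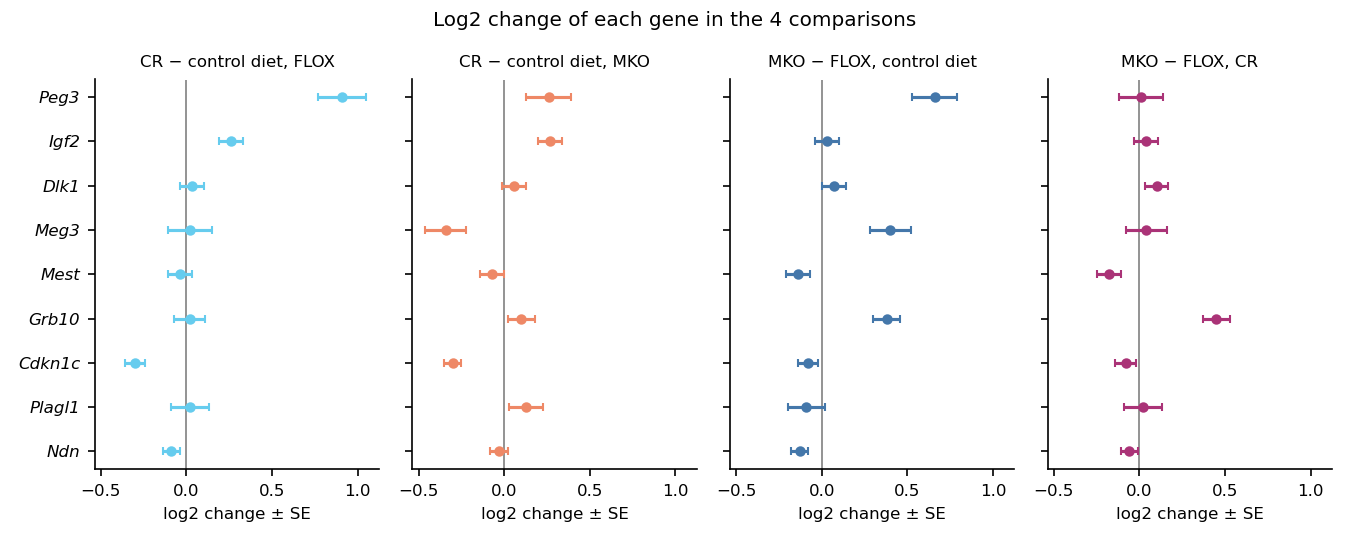
Log2 change with its SE for the brightest probe set of each of the 9 genes in the 4 comparisons. Igf2 lies right of 0 and Cdkn1c left of 0 in both diet comparisons, Grb10 lies right of 0 in both genotype comparisons, and Peg3 ranges from 0.91 for CR in FLOX to 0.01 for MKO on CR.

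The other imprinted genes on the list, 32 tested of 48, were read the same way. With CR 0 rose and 4 fell in FLOX (12.5%), and 1 rose and 7 fell in MKO (25.0%). For MKO against FLOX 4 were higher and 1 lower on the control diet, and 3 higher and 2 lower on CR (15.6% each). The median log2 changes were 0.00, -0.03, -0.03 and -0.02 in these 4 comparisons, against 0.0012, 0.00095, -0.016 and -0.016 over all genes tested. The counts lay near the shares over all genes in 3 of the comparisons and above that share for CR in MKO.

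Some of these lie beside the 9 genes. Copg2, next to Mest, fell by 0.36 with CR in MKO (limma adjusted p = 0.000408) and was 0.34 higher in MKO on the control diet (adjusted p = 0.000831). Rian, a noncoding RNA of the Dlk1 and Meg3 domain, fell by 0.35 with CR in MKO (adjusted p = 0.0124), while Mirg, of the same domain, had a log2 difference of 0.04 (adjusted p = 0.682). Cd81, near Igf2 on chromosome 7, fell by 0.32 in FLOX (adjusted p = 8.43e-05) and by 0.25 in MKO (adjusted p = 0.000333) with CR. Kcnq1, between Cd81 and Cdkn1c, rose by 0.11 in MKO (adjusted p = 0.0356). Ube3a, of the domain that holds Ndn, was higher in MKO by 0.32 on the control diet (adjusted p = 0.000319) and by 0.24 on CR (adjusted p = 0.0043). Snrpn, of the same domain, was lower in MKO on CR by a log2 difference of -0.14 (adjusted p = 0.021). Usp29, the neighbour of Peg3, changed by 0.03 with CR in FLOX (adjusted p = 0.903).

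Of the rest, Slc38a4, an amino acid transporter, was higher in MKO by 0.46 on the control diet (limma adjusted p = 0.00284) and by 0.69 on CR (adjusted p = 3.18e-05), and fell by 0.50 with CR in FLOX (adjusted p = 0.00385). Impact, a regulator of the amino acid starvation response, was 0.31 higher in MKO on the control diet (adjusted p = 0.000199) and fell by 0.27 with CR in MKO (adjusted p = 0.000722). Dcn, the matrix proteoglycan decorin, fell with CR by 0.40 in FLOX (adjusted p = 0.00724) and by 0.36 in MKO (adjusted p = 0.00586). Asb4, of a ubiquitin ligase family, fell by 0.57 with CR in MKO (adjusted p = 0.000652) and was 0.33 lower in MKO on CR (adjusted p = 0.046). Gnas fell by 0.15 with CR in FLOX (limma adjusted p = 0.028) and was 0.13 higher in MKO on CR (adjusted p = 0.0367). Ampd3 fell by 0.18 with CR in MKO (limma adjusted p = 0.023), and Blcap was 0.17 lower in MKO on the control diet (adjusted p = 0.0286).

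The genes were also compared among mice of 1 group. Which values led to the choice of the genes is not stated, so the tests of pairs assume that variation within groups played no part in it. With group means subtracted, 2 of 36 pairs had a permutation p that passed after Benjamini-Hochberg adjustment over the 36, and by Spearman's rho 0 did. Peg3 and Plagl1 varied in the same direction among the 26 mice (r = 0.63, two-sided permutation p = 0.0007, adjusted 0.025; rho = 0.59, adjusted 0.061). Within the groups r was 0.93 in control FLOX, 0.51 in control MKO, 0.58 in CR FLOX and 0.49 in CR MKO, and it was 0.63 without the 2 mice farthest from the median. Both genes followed the log2 summed intensity of the Schwann and nerve markers (r = 0.71 for Peg3 and 0.70 for Plagl1), of the fibroblast markers (0.43 and 0.46) and of the fibre markers (0.51 and 0.43). Dlk1 and Mest went opposite ways (r = -0.59, permutation p = 0.0018, adjusted 0.032; rho = -0.59, adjusted 0.061). Within the groups this r ran from -0.41 to -0.83, and it was -0.56 without the 2 farthest mice. The endothelial markers' log2 summed intensity went with Dlk1 at r = -0.54 and with Mest at 0.45, and the satellite cell markers' at -0.43 and 0.44. The Dlk1 probe set used here followed the other passing one at r = 0.25. Ordered by r from highest to lowest among 14853 other genes, Plagl1 stood at place 27 for Peg3, and Mest at place 14531 for Dlk1. So other genes were more strongly correlated with Peg3, and others went more strongly against Dlk1. The part of these cells and probe sets in both correlations was not tested.

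**Figure D4:**
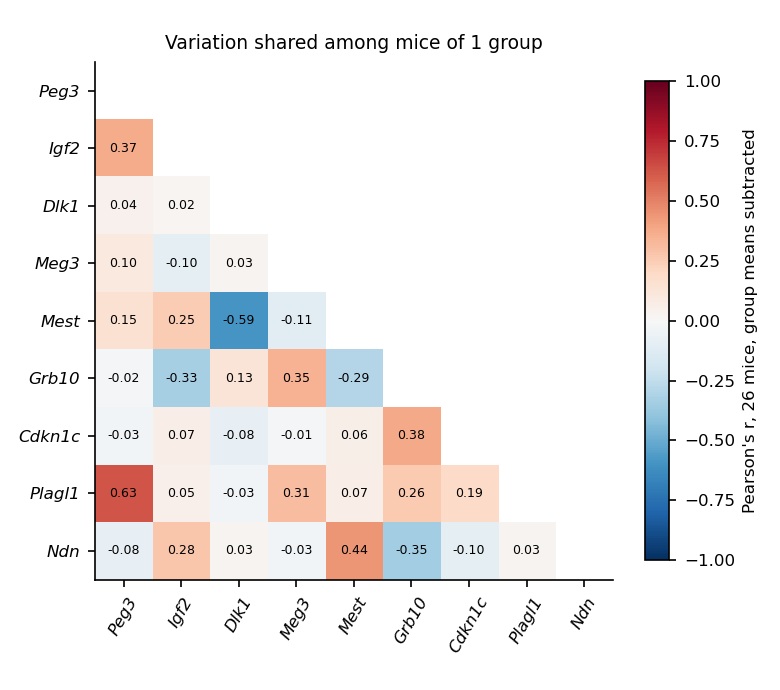
Pearson's r of each pair of the 9 genes over 26 mice after subtracting each group's mean from log2(intensity + 16). Peg3 with Plagl1 (0.63) and Dlk1 with Mest (-0.59) are the strongest, and Dlk1 with Meg3 stands at 0.03.

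Among the 14853 other tested genes, those that followed Peg3 most closely within groups were the fast myosin light chain gene Mylpf (r = 0.80), the myelin gene Pmp22 (r = 0.74) and the creatine-synthesis gene Gatm (r = 0.74). The fibre markers and the Schwann and nerve markers, which Peg3 also followed, include Mylpf and Pmp22, in that order. Of the 4 tested of 6 Schwann and nerve markers 0 were called in any of the 4 comparisons, and their summed intensity ranged from 1868 to 3535 over all mice. Without subtracting group means, Neu2 and Bcap29 were most like Peg3 (r = 0.83 each), followed by Ppp1r1a, Itm2a and Med1 (r = 0.81 each). The closest genes to Grb10 were Trio (r = 0.85), Bms1 (r = 0.79) and Klhl24 (r = 0.76). For Meg3 they were Fkbp1a (r = 0.79), Abcc9 (r = 0.76) and Yipf6 (r = 0.73). For Igf2 they were Pola2 and Dmac1 (r = 0.76 each) and Snord104 (r = 0.74), and for Cdkn1c Shisa2 (r = 0.66), Rps6 (r = 0.65) and Enox2 (r = 0.62). For Dlk1 they were Mboat2 (r = 0.94), Dusp7 (r = 0.90) and Creb3l1 (r = 0.89), and for Mest Zfp830 (r = 0.90), Ing1 (r = 0.89) and Rab3d (r = 0.87). For Plagl1 they were Itgb4 (r = 0.80), Hp1bp3 (r = 0.78) and Rnf169 (r = 0.77), and for Ndn Txnrd2 (r = 0.84), Skp2 and Klc4 (r = 0.83 each). Predicted genes were passed over. These correlations over 26 mice are descriptions of likeness, picked as the highest of many.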

How the data were processed

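RNA of 26 muscle samples was measured on 1-colour Affymetrix arrays. The deposited table holds 1 linear intensity per probe set and array, made by the authors by steps not given in the sources used here. Of 45101 probe sets, 34945 named exactly 1 gene in the platform annotation and were used, with symbols updated where possible (34741). From them log2(intensity + 16) was computed, probe sets with a mean under the 30th percentile were left out, and the brightest stood for a gene, leaving 14854 genes. limma 3.58.1 in R 4.3.3 fitted 1 mean per group over all arrays, with Benjamini-Hochberg adjustment over all genes. The fitting code was tested on simulated data. P-values measure the spread between individually housed mice.

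The 10 genes and all gene lists were chosen with earlier results of these data known. The text names all 10, the other imprinted genes by test result, at most the 3 genes of smallest p in each other list, and the 3 genes most like each member; Usp29, Mirg, the IGF genes beyond 3 and all called markers of regenerating fibres were named after their values were seen. The IGF list is given without Igf2. Alternatives changed the pseudocount, filter, normalization, probe set, variance model, array weights and arrays in the fit, and each mouse was left out in turn. Pairs were tested with 100000 permutations within groups. Promoter sequences come from RefSeq (GRCm38.p6).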

Additional observations from a re-analysis of the deposited data

Results flagged for a closer look

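A gap test for a single far value was applied to each of the 9 genes in each of the 4 groups, 36 sets of 6 or 7 mice, and chance marks about 1 in 20 sets. It marked 5. Peg3 stood at 1360 in CR MKO mouse 1, with the next mouse at 896. Meg3 stood at 1334 in CR FLOX mouse 1, below the next mouse at 1531. Grb10 stood at 1351 in control MKO mouse 4, above the next at 1093, the mouse that also had the highest Meg3 value. Ndn stood at 655 in control FLOX mouse 5, with the next at 598, and at 489 in control MKO mouse 3, with the next at 541.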

How the results depend on the processing

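The calls of Igf2 and Cdkn1c with CR in MKO and of Grb10 on both diets passed under every alternative run. Their adjusted p ranged over 0.00253 to 0.0282, 0.00014 to 0.00131, 0.000913 to 0.00776 (Grb10, control diet) and 0.000102 to 0.0013 (Grb10, CR) in limma. No called result changed sign. Of 45 differences, 14 that were uncalled or untested changed sign under some alternative. The largest were those of Ndn with the mean of its probe sets, which went from -0.129 to 0.0565 for MKO on the control diet, from -0.0942 to 0.0171 for CR in FLOX and from 0.0645 to -0.0808 for the interaction. Of MKO against FLOX on the control diet, 2 genes were called, and 1 with the mean of a gene's probe sets or with only the 2 groups compared (Meg3 adjusted p = 0.104 and 0.0731); 3 were called with the 50th percentile filter or median centring (Ndn adjusted p = 0.0472 and 0.0449), and leaving out 1 mouse gave 1 to 3. Of MKO against FLOX on CR, 1 gene was called, and 2 with array weights or with only the 2 groups compared (Mest adjusted p = 0.0381 and 0.0426); leaving out 1 mouse gave 1 to 2, and 2 without CR MKO mouse 1. For CR in MKO, where 2 were called, the 50th percentile filter and array weights each gave 3 and leaving out 1 mouse gave 2 to 3, the added gene being Meg3 (adjusted p 0.0311 to 0.141 over all alternatives). Array numbers recur across groups, but the labels do not say that they pair mice. Deviations of same-numbered mice correlated at -0.36 to 0.34 over 37 pairs, and 2 of 26 arrays correlated best with their own number. With a replicate block the calls numbered 2, 3 and 1 for CR in MKO, for MKO on the control diet and for MKO on CR, Ndn being added (log2 change -0.14, adjusted p = 0.0335). The causes were not tested. The floor near 60 compresses changes of dim probe sets, and the number of arrays limits precision.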
